A study of Mus musculus with 6 samples.

Results

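This section describes 41 genes of DNA damage signalling and repair in long-term haematopoietic stem cells (LT-HSCs) of mice with and without a Dcaf8 knockout. The genes were taken from a list of repair factors, and all 41 matched a gene in a count table of 55357 identifiers, 1 of them (H2ax, formerly H2afx) through a synonym. LT-HSCs were sorted from bone marrow of young mice by flow cytometry, as cells that carried Sca-1, c-Kit and CD150 but neither lineage markers nor CD48. The amplified mRNA of 50 cells gave 1 library per mouse. There were 3 wild-type and 3 Dcaf8 knockout mice, and the labels name no allele, strain or Cre driver for the knockout, nor an exact age. No agent that damages DNA is named for any group, so levels are those of cells sorted without such a treatment. The protein made from Dcaf8 brings substrates to ubiquitin ligases built on CUL4 and DDB1, a family that also takes part in recognition of ultraviolet damage through Ddb2.

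Cells repair breaks of both DNA strands by homologous recombination, which copies an intact sister chromatid and therefore works after replication, or by end joining, which ligates the ends directly and is open to resting cells. The Fanconi proteins unhook crosslinks between the strands, excision repair replaces damaged bases or short stretches, and mismatch repair corrects replication errors. The kinases ATM and ATR sense breaks and stalled forks and pass the signal to CHK1, CHK2 and the chromatin around the lesion. LT-HSCs are mostly out of cycle, and mice that lack Fanconi, end joining or ATM function are known to lose blood stem cell function.

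Promoter sequence is a property that the list did not use. RefSeq promoter windows of build GRCm38.p6, from 250 bases before to 50 after the annotated start, matched 33 of the 41 genes (unmatched were Xrcc2, Nbn, Fancd2, Prkdc, Rad50, Xpc, Polb and H2ax). They were searched on both strands for 4 spellings of the E2F motif, which marks many genes of DNA replication: TTTGGCGC, TTTCCCGC, TTTGGCGG and TTTCGCGC. A gene counted once however many of its matches overlapped. A match was found for 10 of the 33 genes (30.3%), against 2.7% of all 27025 gene symbols with a window and 5.16% of the 9910 tested genes with one. The 10 were Brca2, Rad51c and Rpa1 of homologous recombination, Xrcc6 of end joining, Msh6 of mismatch repair, and Chek1, Chek2, Topbp1, Mdc1 and Rnf168 of signalling. In 6 of them the match lay before the start, and the sequence around it is shown for these, on the gene's own strand with the motif in capitals.
Brca2, homologous recombination, chr5:150522427-150522486, plus strand: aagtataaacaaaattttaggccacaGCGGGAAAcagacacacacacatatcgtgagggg
Rpa1, homologous recombination, chr11:75348567-75348626, minus strand: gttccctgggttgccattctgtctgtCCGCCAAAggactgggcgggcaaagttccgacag
Xrcc6, end joining, chr15:82016297-82016356, plus strand: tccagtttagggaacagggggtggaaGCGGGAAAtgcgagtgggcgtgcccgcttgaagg
Chek2, signalling, chr5:110839805-110839864, plus strand: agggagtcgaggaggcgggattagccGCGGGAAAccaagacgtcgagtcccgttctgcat
Topbp1, signalling, chr9:103305172-103305231, plus strand: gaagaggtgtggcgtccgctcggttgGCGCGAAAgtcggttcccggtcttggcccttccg
Mdc1, signalling, chr17:35841456-35841497, plus strand: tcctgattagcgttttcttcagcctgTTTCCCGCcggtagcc
The match in Brca2, Xrcc6 and Chek2 is TTTCCCGC read on the other strand, and Mdc1 holds the same motif on its own strand. The 10 genes with a match had a median log2 fold change of 0.22 in knockout over wild-type cells and the 22 tested genes without one -0.04, a description without a test.

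Libraries held 14461864 to 22386387 counts. Dcaf8 stood at 291, 293 and 204 CPM in wild-type and 74.3, 38.1 and 45.2 CPM in knockout libraries 1 to 3, lower in all 3 knockout libraries (CPM are counts scaled to library size after TMM normalisation). Genes that define HSCs, such as Kit and Mecom, were counted in all 6 libraries. Cd48, which the gate excludes, stood at 7.32, 11.9 and 0.0507 CPM in wild-type and 9.6, 34.7 and 16.6 CPM in knockout libraries. Its groups overlapped (log2 fold change 1.52 ± 0.83, SE; edgeR adjusted p = 0.89). Summed over 7 genes, neutrophil markers reached 6031 CPM in wild-type replicate 2 and at most 29.4 CPM in any other library, and the B and T cell genes Ms4a1, Pax5, Ebf1, Cd3e, Cd3g and Cd8a had 0 counts throughout. Knockout replicate 3 was female by Xist (1124 counts, at most 18 in the others) and the Y-linked genes. In wild-type replicate 3 15244 genes were detected, against 16183 to 17015 in the others.

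Of the 41 genes 40 were abundant enough to be tested, and 0 were called by edgeR (quasi-likelihood, Benjamini-Hochberg adjusted p under 0.05 over 14592 genes), against 0.0% of all genes tested. Dcaf8 itself was not called by edgeR (adjusted p = 0.739) and was called by DESeq2 (adjusted p = 1.98e-09). At an unadjusted p under 0.05 there were 3 repair genes, Mre11a on the higher and Nbn and Polb on the lower side, which is 7.5% of the 40 against 5.82% of all genes tested (3.47% on the higher and 2.35% on the lower side). The same 3 genes were the only ones whose wild-type and knockout libraries did not overlap, 7.5% against 10.3% of all genes tested (5.91% above and 4.43% below). The median log2 fold change of the 40 genes was 0.01, as over all genes tested (0.01), and 21 of them (52.5%) had higher values in knockout, against 50.9% of all. A log2 fold change of at least 1 in size before rounding was estimated for 2 of them, Fancd2 and Fanca, 5.0% against 14.3% of all. DESeq2 called 1 repair gene, Polb, against 0.861% of the genes it adjusted, and had 3 at an unadjusted p under 0.05, against 5.68% of all genes. By limma-voom with sample weights 0 were called, against 0.0%, and 3 had an unadjusted p under 0.05, against 5.31%.

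**Figure D1:**
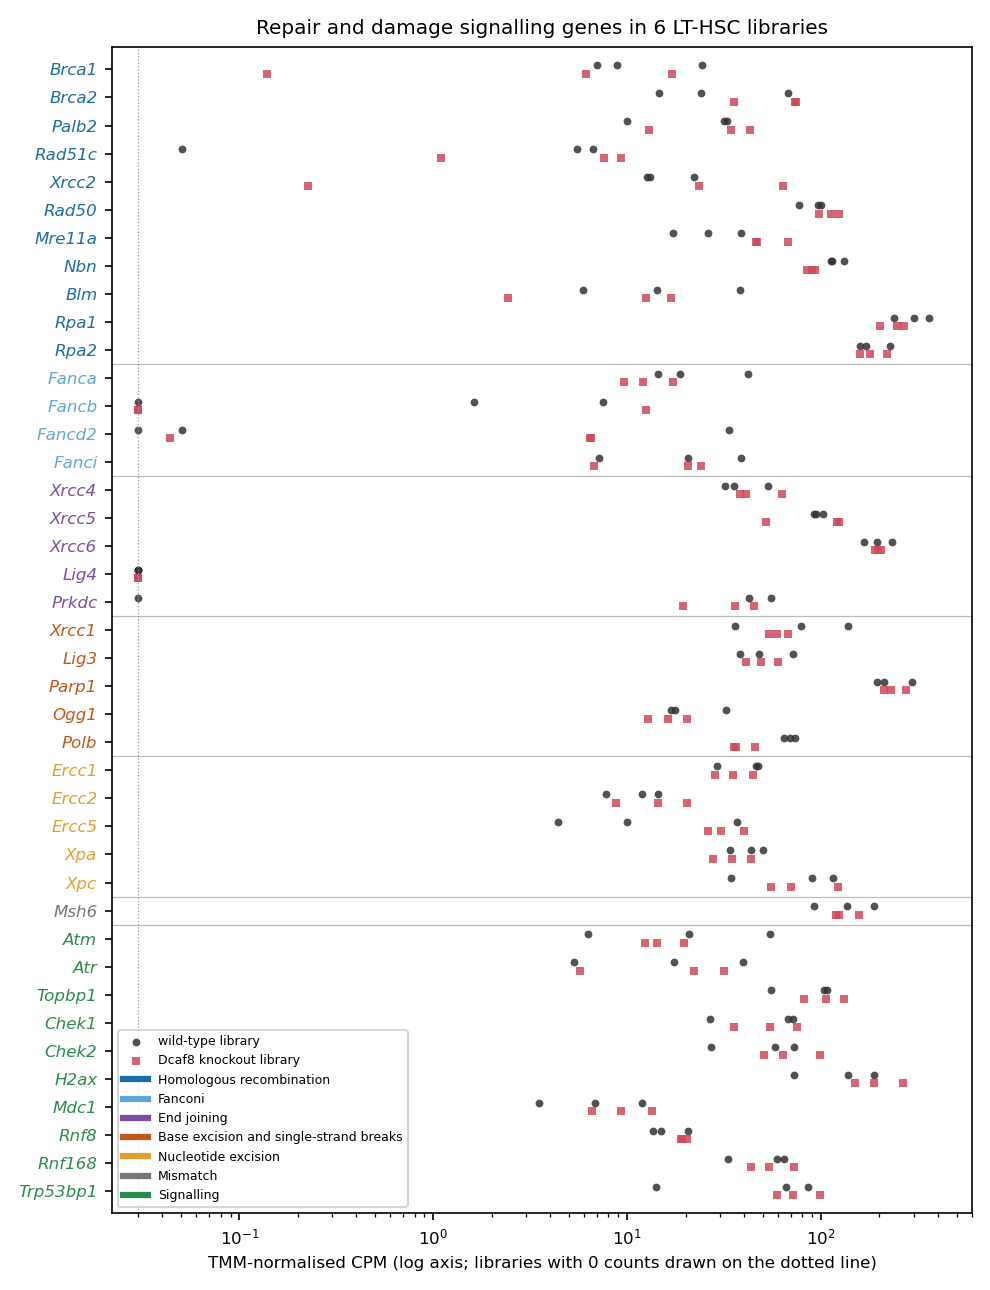
TMM-normalised CPM (log axis) of the 41 genes in each of the 3 wild-type (circles) and 3 knockout libraries (squares), ordered by role; libraries with 0 counts are drawn on the dotted line. Lig4 has 0 counts in all 6 libraries, and Mre11a, Nbn and Polb are the genes whose groups do not overlap.

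Within homologous recombination, the 3 subunits of the MRN complex, which binds broken ends and starts their resection, had values in different directions. Mre11a, the nuclease, stood at 38.5, 26.2 and 17.2 CPM in wild-type and 45.9, 46.8 and 67.6 CPM in knockout libraries 1 to 3, so every knockout library was above every wild-type library. The means were 27.3 ± 10.7 and 53.4 ± 12.3 CPM (SD, n = 3 per group). Its log2 fold change was 1.00 ± 0.37 (SE; edgeR adjusted p = 0.837). Nbn, the subunit that recruits ATM, stood at 113, 114 and 132 CPM in wild-type and 85, 93.5 and 89.6 CPM in knockout libraries. Here every knockout library was below every wild-type library, with means of 120 ± 10.6 and 89.4 ± 4.25 CPM (SD, n = 3 per group) and a log2 fold change of -0.43 ± 0.18 (SE; edgeR adjusted p = 0.855). Rad50, the ATPase that tethers the ends, stood at 96.3, 100 and 77.0 CPM in wild-type and 112, 124 and 97.2 CPM in knockout libraries, where knockout replicate 3 lay within the wild-type range (log2 fold change 0.27 ± 0.21, SE). Under the 15 alternatives the estimates lay at 0.75 to 1.31 for Mre11a and at -0.47 to -0.35 for Nbn. As their groups do not overlap, leaving out libraries could hardly turn the direction, so its constancy adds no support.

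**Figure D2:**
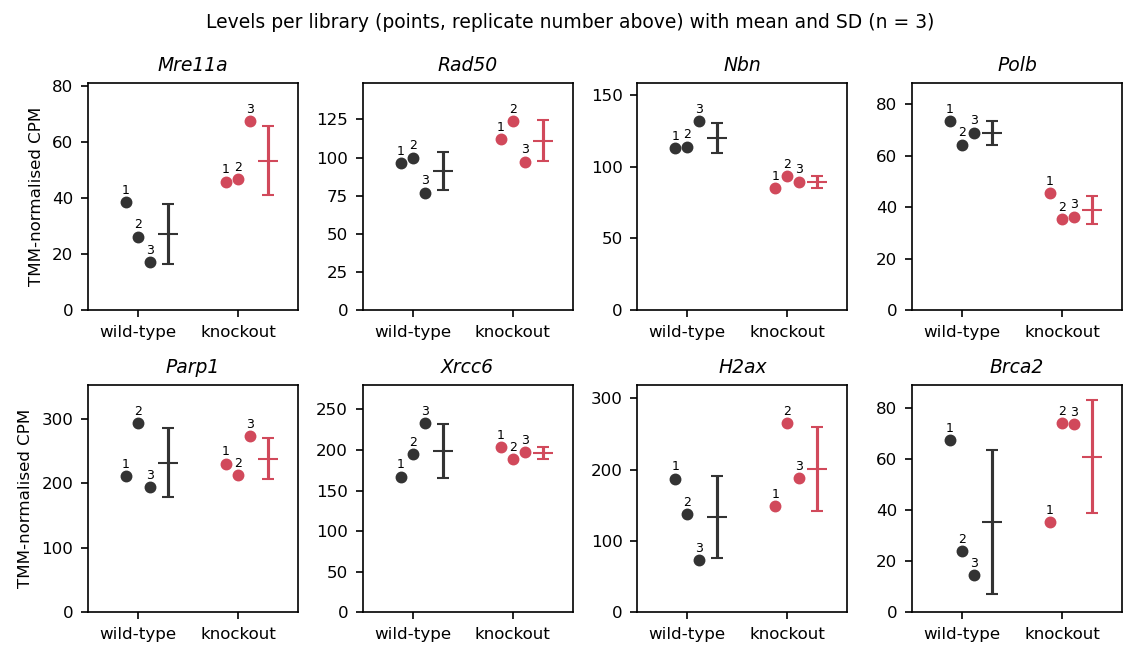
TMM-normalised CPM of 8 genes in each library (points, with the replicate number) and the mean with SD (n = 3 per group) for wild-type (dark) and knockout (red). Mre11a lies higher and Nbn and Polb lower in every knockout library, whereas the groups of Rad50, Parp1, Xrcc6, H2ax and Brca2 overlap.

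The mediators of recombination were less even between mice. Brca2, a mediator that acts on resected single-stranded DNA, stood at 67.4, 24 and 14.6 CPM in wild-type and 35.4, 74.1 and 73.6 CPM in knockout libraries 1 to 3. Wild-type replicate 1 was nearly as high as the highest knockout libraries, so the groups overlapped (log2 fold change 0.80 ± 0.56, SE; edgeR adjusted p = 0.939). Leaving out wild-type replicate 1 gave 1.62, and leaving out replicate 3 gave 0.42. Brca1, which acts upstream with Bard1 in end resection, stood at 8.90, 24.4 and 6.95 CPM in wild-type libraries. In knockout libraries it stood at 17.1, 0.139 and 6.15 CPM, and knockout replicate 2 held 2 Brca1 reads. Rad51c, which acts in strand exchange, stood at 6.64, 5.53 and 0.0507 CPM in wild-type and at 1.10, 9.33 and 7.55 CPM in knockout libraries, with 1 read in wild-type replicate 3. Xrcc2, which acts at the same step, ranged from 0.226 CPM in knockout replicate 3 to 63.7 CPM in knockout replicate 2. Palb2, which links BRCA1 to BRCA2, ranged from 10 to 43.0 CPM, and Blm, a helicase that resolves recombination intermediates, from 2.44 to 38.1 CPM, both with overlapping groups.

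Replication protein A, which coats single-stranded DNA during recombination and nucleotide excision repair, was abundant. Rpa1 stood at 237, 301 and 358 CPM in wild-type and 202, 269 and 245 CPM in knockout libraries, with overlapping groups (log2 fold change -0.33 ± 0.19, SE; edgeR adjusted p = 0.903). Rpa2 stood at 185 ± 36.5 CPM in wild-type and 185 ± 31.2 CPM in knockout cells (SD, n = 3 per group). Over the 11 recombination genes, 6 had higher and 5 lower values in knockout, with a median log2 fold change of 0.17 that lay between -0.14 and 0.35 when single libraries were left out.

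All 4 Fanconi genes of the list had lower estimates in knockout, from -1.36 to -0.05 with a median of -0.69. However, 0 passed the test and in each the groups overlapped. Outside the list most Fanconi genes had higher estimates, at 0.69 for Fancc, 0.58 for Fancg, 0.46 for Fancm, 0.26 for Fance and 0.19 for Fancl. Fancf was lower at -0.61. Over the 28 other recombination and Fanconi genes tested, 17 were higher and 11 lower, with a median of 0.17. Fanca, a subunit of the core ubiquitin ligase complex, stood at 18.7, 14.5 and 41.9 CPM in wild-type and 12.1, 17.3 and 9.63 CPM in knockout libraries (log2 fold change -1.0 ± 0.56, SE; edgeR adjusted p = 0.899). Wild-type replicate 3 stood apart as the highest, and without it the value was -0.39. Fancd2, which the core complex ubiquitinates together with Fanci, stood at 33.3, 0 and 0.0507 CPM in wild-type and 0.0438, 6.4 and 6.51 CPM in knockout libraries. Its log2 fold change of -1.36 ± 1.5 (SE) rested on wild-type replicate 1, and without that library the estimate was 7.01. Fanci stood at 38.5, 20.7 and 7.15 CPM in wild-type and 6.75, 20.5 and 24.1 CPM in knockout libraries. Its estimate of -0.38 became 0.24 when wild-type replicate 1 was left out, 0.06 for knockout replicate 1 and -0.82 for knockout replicate 3. Fancb, another core subunit, had 0 counts in wild-type replicate 3 and in knockout replicates 1 and 3, and up to 12.5 CPM elsewhere. Leaving out wild-type replicate 1 moved the median of the 4 genes to -0.04, knockout replicate 1 to -0.31 and knockout replicate 2 to -1.43.

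Recombination and Fanconi genes are known to be transcribed mainly in S phase, so the proliferation markers of the same libraries are given beside them. Top2a stood at 413, 57.1 and 89.3 CPM in wild-type and 120, 224 and 218 CPM in knockout libraries, and Mki67 at 99.5, 26.3 and 37.7 and at 31.6, 74.3 and 48.7 CPM. Both were highest in wild-type replicate 1, as were Blm, Fancd2 and Fanci. Brca2, Palb2, Rad51c, Xrcc2, Rad50 and Fancb were highest in knockout replicate 2, and the remaining recombination and Fanconi genes in other libraries. Wild-type replicate 1 was highest for 4 of the 40 repair genes (10%), against 18.3% of all genes tested. Of 16 proliferation genes 4 were highest in wild-type replicate 1 and 8 in knockout replicate 2. Values were higher in knockout for 11 and lower for 5, with a median log2 fold change of 0.085, and 0 passed edgeR's test. Cdk1, the mitotic kinase, was the 1 gene whose groups did not overlap, at 89.0, 63.2 and 67.3 CPM in wild-type and 105, 144 and 113 CPM in knockout libraries (log2 fold change 0.71 ± 0.23, SE; edgeR adjusted p = 0.755). Its partner Ccnb1 had a log2 fold change of 0.93 ± 0.45 (SE) with overlapping groups. Both were named after their values were seen. Summed over the 16 genes the libraries stood at 3619 to 4534 CPM of the total count in wild-type and 3468 to 5084 CPM in knockout, so the groups overlapped, and by this sum knockout replicate 2 was the highest. The part of these markers in the values of the repair genes was not tested.

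The 4 end joining genes of the list that were tested had estimates close to 0, with an SE of up to 0.82. Of 13 end joining genes outside the list, 6 had higher and 7 lower values, from -1.44 to 0.94. Xrcc6 and Xrcc5 encode the 2 subunits of Ku, the ring that binds a broken end first. Xrcc6 stood at 167, 195 and 233 CPM in wild-type and 203, 189 and 197 CPM in knockout libraries, with all 3 knockout libraries inside the wild-type range (log2 fold change -0.02 ± 0.16, SE; edgeR adjusted p = 1.00). Xrcc5 stood at 94.1, 102 and 92.3 CPM in wild-type and 52.1, 123 and 121 CPM in knockout libraries, where replicate 1 lay below and the others above all wild-type libraries (0.01 ± 0.33, SE). Prkdc, the kinase that Ku recruits, stood at 42.7, 55.4 and 0 CPM in wild-type and 19.5, 35.8 and 45.3 CPM in knockout libraries, an estimate of 0.02 ± 0.82 (SE) with 1 library at 0. Without that library, wild-type replicate 3, it was -0.56, and by limma-voom with all libraries 1.87. Xrcc4, the scaffold of the end joining ligase, stood at 35.6, 53.1 and 31.9 CPM in wild-type and 40.8, 63.0 and 38.2 CPM in knockout libraries. Lig4, the ligase itself, had 0 counts in all 6 libraries, which allows at most 3 counts, or 0.134 to 0.207 CPM, per library and covers counting error only. The annotation release and strand setting behind the counts are not known here, and whether the 0 comes from the counting was not tested. It was the member that did not reach the filter on low counts. The other 4 had a median log2 fold change of 0.02 and estimates from -0.02 to 0.18.

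**Figure D3:**
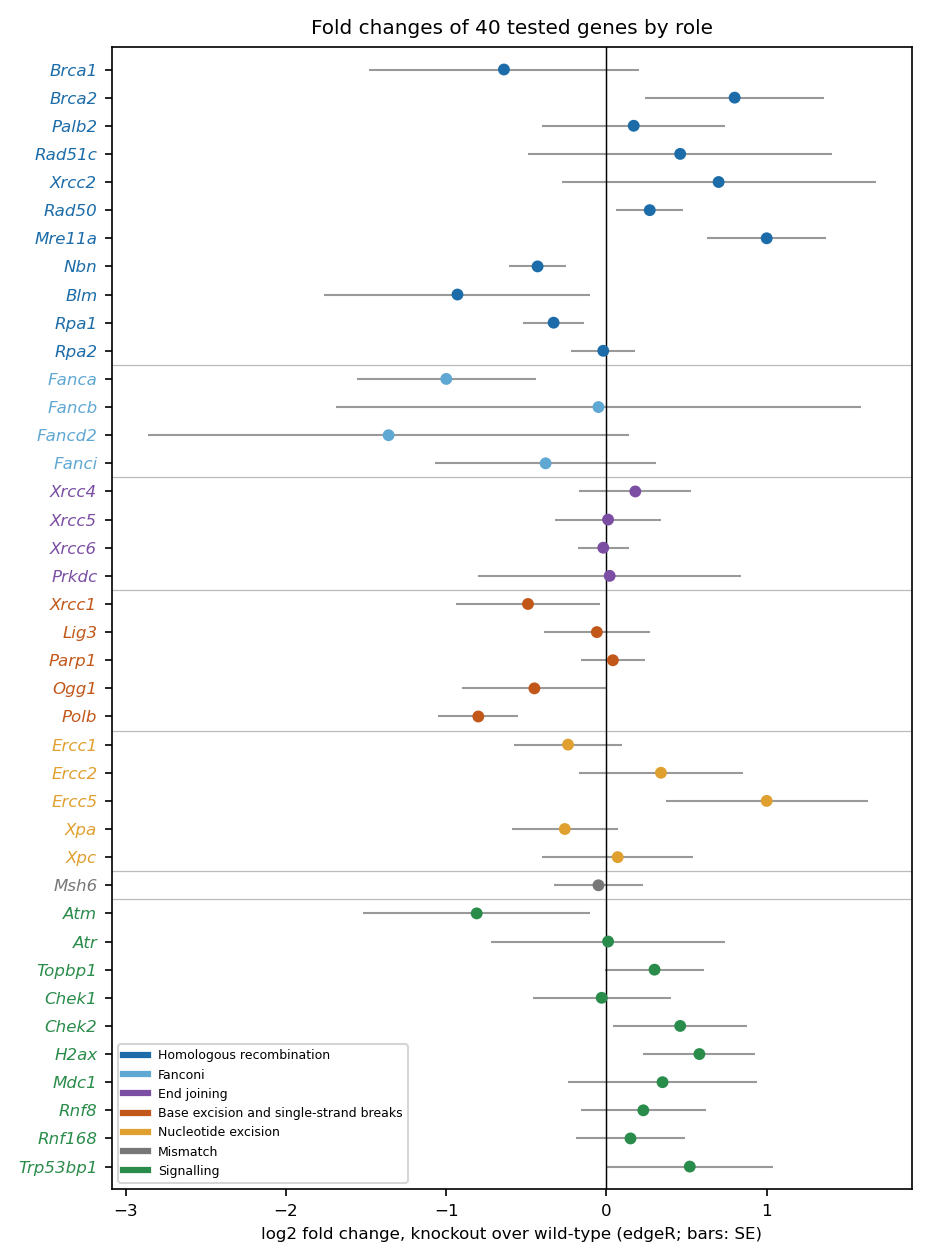
Log2 fold change of knockout over wild-type with its SE (edgeR) for the 40 tested genes, coloured by role. The end joining genes lie between -0.02 and 0.18 and the Fanconi genes between -1.36 and -0.05, and the largest values by size are those of Fancd2, Mre11a, Ercc5 and Fanca, of which Fancd2 has the widest bar.

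Excision repair held the gene with the smallest p of the list. Polb, the polymerase that fills the gap in base excision repair, stood at 73.6, 64.4 and 69.0 CPM in wild-type and 45.4, 35.5 and 36.3 CPM in knockout libraries 1 to 3. All knockout libraries were below all wild-type libraries, with means of 69.0 ± 4.61 and 39.1 ± 5.48 CPM (SD, n = 3 per group). The log2 fold change was -0.80 ± 0.25 (SE), with an unadjusted p of 0.0132 and an adjusted p of 0.752 by edgeR. DESeq2 gave -0.83 with an adjusted p of 0.0161. With single libraries left out DESeq2 kept the call in 2 of 6 fits, those lacking wild-type replicate 2 (adjusted p = 0.0443) or knockout replicate 1 (0.00108). In the other 4 the adjusted p was 0.0615 to 0.158. The estimate itself lay between -0.95 and -0.74 in every fit run.

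The partners of Polb did not share this pattern. Parp1, the sensor of single-strand breaks, stood at 211, 293 and 194 CPM in wild-type and 230, 212 and 273 CPM in knockout libraries (log2 fold change 0.04 ± 0.20, SE), with all knockout libraries inside the wild-type range. Xrcc1, the scaffold that PARP1 activity recruits and that binds Polb, stood at 78.9, 138 and 36.0 CPM in wild-type and 54.0, 59.2 and 67.7 CPM in knockout libraries. Its log2 fold change of -0.49 ± 0.45 (SE) was 0.09 without wild-type replicate 2, the library with neutrophil transcripts. Lig3, the ligase bound to Xrcc1, averaged 52.6 ± 17.3 CPM in wild-type and 49.9 ± 9.51 CPM in knockout cells (SD, n = 3 per group). Ogg1, the glycosylase that removes oxidised guanine, stood at 17.6, 16.9 and 32.5 CPM in wild-type and 12.8, 16.2 and 20.3 CPM in knockout libraries, and without wild-type replicate 3 its estimate of -0.45 was -0.07. Of the 5 genes 4 had lower values in knockout, and the group's median of -0.45 was 0.09 without wild-type replicate 2 and -0.02 when knockout replicate 3 was left out with it.

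Nucleotide excision repair removes bulky lesions such as those of ultraviolet light. Xpc, which recognises the distorted helix, stood at 115, 89.7 and 34.5 CPM in wild-type and 122, 70.3 and 54.9 CPM in knockout libraries, with overlapping groups (log2 fold change 0.07 ± 0.47, SE). Ercc5, the nuclease that cuts on the 3′ side of the lesion, stood at 36.7, 9.99 and 4.41 CPM in wild-type and 39.9, 26.2 and 30.3 CPM in knockout libraries. Its log2 fold change of 1.00 ± 0.63 (SE; edgeR adjusted p = 0.922) depended on single libraries: leaving out wild-type replicate 1 gave 2.17 and replicate 3 gave 0.53. Ercc1, part of the nuclease that cuts on the 5′ side, stood at 29.1, 46.2 and 47.3 CPM in wild-type and 28.2, 44.3 and 35.1 CPM in knockout libraries. Ercc2, a helicase of TFIIH, ranged from 7.81 to 20.3 CPM. Xpa, which verifies the damage, stood at 43.6, 50.0 and 33.7 CPM in wild-type and 43.6, 34.6 and 27.6 CPM in knockout libraries. The 5 genes divided into 3 with higher and 2 with lower values. Without wild-type replicate 1, DESeq2 called 3 repair genes, Ercc5 (adjusted p = 0.00457), Mre11a (0.0273) and Brca2 (0.0289), all with higher values in knockout. That is 7.5% of the 40, in a fit that called 4.33% of all genes and 3.42% on the higher side. These were named after their values were seen. Mismatch repair was represented by Msh6, which takes part in finding mispaired bases. It stood at 136, 92.1 and 188 CPM in wild-type and 119, 123 and 157 CPM in knockout libraries, with every knockout library inside the wild-type range.

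Damage signalling genes of the list had higher values in knockout for 8 of 10, and 0 passed the test. Their median log2 fold change was 0.26 (0.16 to 0.38 with single libraries left out, 0.09 without wild-type replicate 2 and knockout replicate 3 together). Among the 21 other signalling genes tested, 6 had higher and 15 lower values, with a median of -0.08. H2ax, the histone variant phosphorylated around breaks, stood at 187, 138 and 72.7 CPM in wild-type and 149, 265 and 188 CPM in knockout libraries. The groups overlapped through wild-type replicate 1 and knockout replicate 1 (log2 fold change 0.58 ± 0.35, SE; edgeR adjusted p = 0.918). Leaving out wild-type replicate 1 gave 0.90, wild-type replicate 3 gave 0.29 and knockout replicate 2 gave 0.35. Trp53bp1, which steers breaks to end joining, stood at 86.0, 14.1 and 65.6 CPM in wild-type and 71.2, 59.0 and 99.1 CPM in knockout libraries. The low value was that of wild-type replicate 2, and without this library the log2 fold change of 0.52 was 0.04.

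The apical kinases were counted at low levels. Atm, which answers to double-strand breaks, stood at 6.25, 20.8 and 54.4 CPM in wild-type and 19.7, 12.3 and 14.2 CPM in knockout libraries, where the knockout libraries lay inside a wide wild-type range (log2 fold change -0.81 ± 0.71, SE). Without wild-type replicate 3 the estimate was 0.17. Atr, which answers to stalled forks, stood at 17.5, 39.6 and 5.33 CPM in wild-type and 22, 5.71 and 31.5 CPM in knockout libraries, an estimate of 0.01 ± 0.73 (SE). Topbp1, the activator of ATR, averaged 88.5 ± 29.0 CPM in wild-type and 106 ± 24.8 CPM in knockout cells (SD, n = 3 per group).

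Of the effector kinases, Chek1 stood at 26.8, 71.8 and 67.3 CPM in wild-type and 35.4, 54.4 and 75.2 CPM in knockout libraries, and Chek2 at 57.6, 27.1 and 72.8 and at 51.0, 63.6 and 98.8 CPM. The groups overlapped for both, with log2 fold changes of -0.03 ± 0.43 and 0.46 ± 0.42 (SE). For Chek2, leaving out wild-type replicate 2 gave 0.13, wild-type replicate 3 gave 0.78 and knockout replicate 3 gave 0.12. For the chromatin adaptors that build repair foci on phosphorylated H2AX the groups overlapped as well. Their log2 fold changes were 0.35 ± 0.59 for Mdc1, 0.23 ± 0.39 for Rnf8 and 0.15 ± 0.34 for Rnf168 (SE). Mdc1, the first of them, stood at 7.42 ± 4.25 and 9.78 ± 3.49 CPM, Rnf8 at 16.4 ± 3.75 and 19.4 ± 0.704 CPM and Rnf168 at 52.3 ± 16.9 and 56.7 ± 14.8 CPM (SD, n = 3 per group). The latter pair are ubiquitin ligases that act in sequence.

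**Figure D4:**
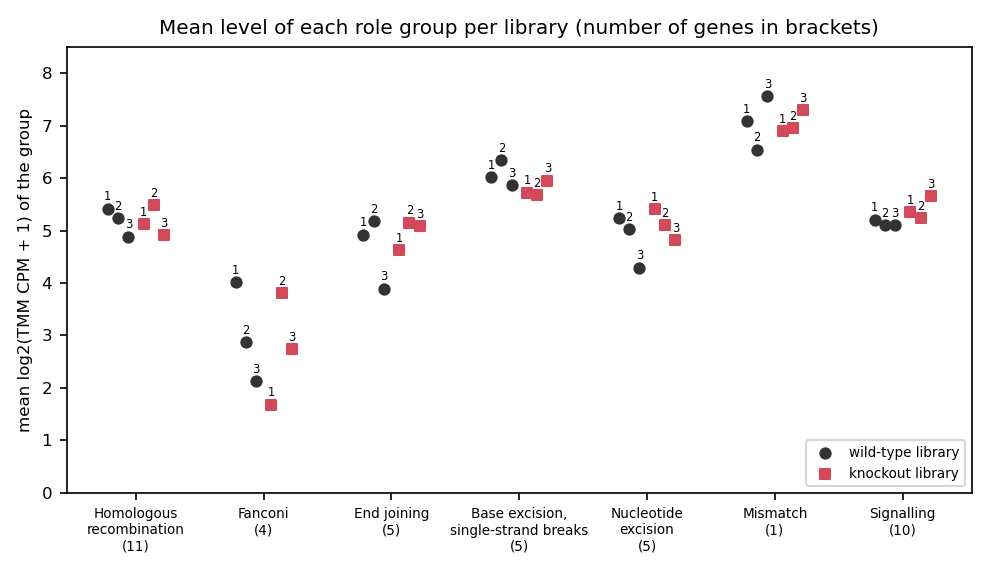
Mean of log2(TMM-normalised CPM + 1) over the genes of each role in each library, with the replicate number above each point; circles are wild-type and squares knockout libraries. The libraries of the 2 genotypes overlap except for the 10 listed signalling genes. There the knockout libraries (5.23 to 5.66) lie just above the wild-type libraries (5.10 to 5.21). The Fanconi genes spread most, from 1.68 to 4.02.

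Read as groups, recombination and Fanconi genes together (15 genes) had a median log2 fold change of -0.05, end joining (4 tested) 0.02, base and nucleotide excision together (10 genes) -0.15, mismatch repair (Msh6) -0.05 and signalling (10 genes) 0.26. These medians are descriptions of a chosen list, and differences between the groups were not tested. The mean level of the signalling genes per library was 5.21, 5.10 and 5.10 on the log2(CPM + 1) scale for wild-type and 5.35, 5.23 and 5.66 for knockout mice. The summed level of the 10 signalling genes overlapped between genotypes, at 579, 454 and 493 CPM in wild-type and 554, 618 and 720 CPM in knockout libraries. The sum over all 41 genes, 2609, 2604 and 2477 CPM in wild-type and 2357, 2721 and 2734 CPM in knockout libraries, overlapped as well. In libraries of 50 cells, fewer cells that transcribe a gene and less RNA per cell cannot be told apart.

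Per kilobase of exon (GENCODE M21 exon lengths, GRCm38), H2ax was the most abundant of the 41 genes at a mean level of 120 CPM per kilobase over the 6 libraries. It was followed by Rpa2 (61.9), Rpa1 (48.1), Parp1 (44.5), Xrcc6 (44.1), Nbn (41.2) and Xrcc5 (38.1). Among the lowest of the genes with reads were Atr at 0.858, Fancd2 at 0.972, Rad51c at 1.15 and Mdc1 at 1.16 CPM per kilobase. The abundant end of this order thus held H2ax, the single-strand binding and Ku subunits, Parp1 and Nbn. At the sparse end were an apical kinase, a Fanconi gene, a strand exchange factor and a chromatin adaptor. The exon length used for Atr was 23629 bases. Annotated exon length counts every isoform, so a gene with long rare exons is placed too low.

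The spread between mice of 1 genotype was uneven across the list. It is given as a coefficient of variation (CV), the pooled SD within genotypes over the mean. The median CV was 37.7% for the 40 genes and 33.0% for all 11504 tested genes between their lowest and highest mean level. Nbn (7.71%), Polb (9.36%), Xrcc6 (12.1%) and Rad50 (12.7%) were the steadiest, and 8 genes had a CV under 20%. Fancd2 (179%), Fancb (161%) and Xrcc2 (102%) had a CV over 100%. The 18 genes with a mean of at least 50 CPM had a median CV of 27.5%, and the 22 below that level 55.2%, against 20.5% and 51.6% of all tested genes at these levels.

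**Figure D5:**
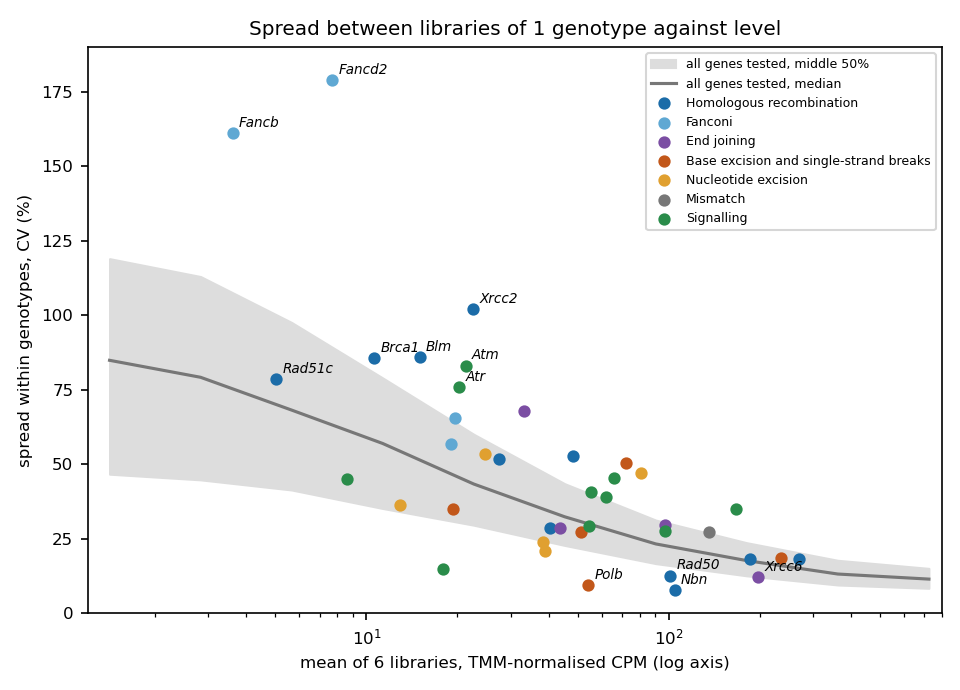
CV within genotypes (%) against the mean TMM-normalised CPM of the 6 libraries (log axis) for the 40 tested genes by role; the grey band and line give the middle 50% and the median of all genes tested. Nbn, Polb, Xrcc6 and Rad50 lie at 7.71 to 12.7%, and Fancd2, Fancb and Xrcc2 above 100%.

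Fewer than 10 reads in at least 1 library were found for 6 of the 40 genes (15%), Brca1, Rad51c, Xrcc2, Fancb, Fancd2 and Prkdc, against 12.4% of tested genes in the same range of levels. The empty libraries belonged to both genotypes. Wild-type replicate 3, the library with the fewest detected genes, was the lowest for 16 of the 40 genes (40%), against 22.6% of all genes tested. Knockout replicate 2 was the highest for 10 (25%, against 15%). The part of library complexity in these values was not tested.

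The remaining genes of the same pathways were 102 further factors with an identifier, of which 100 were tested and 0 passed. At an unadjusted p under 0.05 there were 5 of the 100, no larger a share than the 5.82% of all genes tested, and the median log2 fold change was -0.02 with 48 on the higher and 52 on the lower side. On the lower side stood Uimc1, which brings a BRCA1 complex to ubiquitinated chromatin (116 ± 14.4 CPM in wild-type and 69.4 ± 15.4 in knockout, SD, n = 3 per group), and 2 end joining factors. These were Dclre1c, the nuclease Artemis, at 44.8 ± 23.8 and 16.3 ± 3.71 CPM, and Nhej1, which bridges the ends with XRCC4, at 26.1 ± 1.44 and 13.4 ± 4.37 CPM. Atrip, the partner of ATR, stood at 67.7 ± 9.07 and 47.4 ± 5.04 CPM. On the higher side stood Ung, the uracil glycosylase, at 59.6 ± 9.77 and 102 ± 15.9 CPM, and Dna2, a resection and flap nuclease, at 38.1 ± 7.38 and 70.9 ± 20.5 CPM. Timeless, which protects forks, stood at 28.1 ± 11.7 and 60.7 ± 21.6 CPM, and Lig1, the replicative ligase, at 129 ± 28.5 and 181 ± 42.2 CPM. The edgeR adjusted p of these 8 genes was 0.752 to 0.881, and they were picked by their p in these libraries.

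Some values may be affected by an overlapping neighbour, since no source used here says whether counting used strand or how it treated shared exons. In the GRCm38 annotation the exons of Lig3 overlapped Rffl on the opposite strand over 25.1% of their length. The same held for Ercc2 with Gm26852 (24.6%) and Klc3 (17.8%), Fanci with Polg (16%) and Trp53bp1 with Tubgcp4 (15%). On its own strand Rnf8 overlapped Gm28043 (13.2%). For Mre11a and Polb the largest such overlap was 2.6% and 1.1%, and for Nbn none was annotated.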

How the data were processed

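Libraries of 50 LT-HSCs from each of 3 wild-type and 3 Dcaf8 knockout mice were analysed, starting from the table of raw counts that the authors deposited. Trimmomatic 0.39, HISAT2 2.2.1, Picard 2.26.1, HTSeq 1.99.2, DESeq2 1.38.3 and build mm39 are named, without roles, per the submitters' processing notes. Amplified reads carry no molecular identifiers, so floors cover counting error only. Genotypes were compared with edgeR 4.0.16 in R 4.3.3 (quasi-likelihood, genotype as the only term) after filterByExpr (minimum count 10, minimum total 15) and TMM normalisation. P-values were adjusted over all genes tested (Benjamini-Hochberg, threshold 0.05), and the script was tested on simulated data. Alternatives were RLE or upper-quartile factors, testing without a filter or above 5 CPM in 3 libraries, DESeq2 1.42.0, limma-voom (limma 3.58.1), edgeR's legacy fit, a replicate block, and leaving out each library. Leaving out wild-type replicate 2 and knockout replicate 3 together, and DESeq2 with each library left out, were chosen after seeing the data. With 3 mice a group, p-values measure the spread between these libraries.

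The members and lists were chosen with earlier results of these data known. Values per library are given for core genes of each role, for up to 3 genes per role with the smallest p, for genes whose groups do not overlap and for genes left out by the filter. Of the other pathway genes, those named are up to 4 per direction with the smallest p, among genes averaging 5 CPM or more. Of 103 entries for those genes, 1 did not match. Proteins were not used here.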

Additional observations from a re-analysis of the deposited data

How the results depend on the processing

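Every edgeR and limma-voom setting called 0 repair genes and 0 of all genes. In these settings 0 to 7 repair genes, and 559 to 1445 of all genes, had an unadjusted p under 0.05. Both numbers were largest without wild-type replicate 1, at 7 and 1445, against 3 and 849 in the main fit. DESeq2 called 153 of all genes, 100 higher and 53 lower, and 1 repair gene, lower (Polb). With each library left out, DESeq2 called 770, 416 and 399 genes without wild-type replicates 1, 2 and 3 (609, 334 and 316 higher, 161, 82 and 83 lower) and 335, 322 and 284 without knockout replicates 1, 2 and 3 (84, 73 and 72 higher, 251, 249 and 212 lower). The repair genes among them numbered 3, all higher, when wild-type replicate 1 was left out, 1 (Polb, lower) for wild-type replicate 2, 1 (Polb, lower) for knockout replicate 1 and 0 for the others. The labels do not say whether replicate numbers pair the mice. Deviations of same-numbered libraries from their group means had correlations of 0.059, -0.038 and 0.006. With libraries of 50 cells that vary this much, such values cannot exclude a pairing. A replicate block called 0 genes and gave Xrcc5 -0.02 and Chek1 0.02. It left 1 repair gene, and 807 of all genes, at an unadjusted p under 0.05. Of 435 log2 fold changes of 29 genes under 15 alternatives, 48 turned direction, and 11 genes never did. Among the latter were Mre11a, Nbn and Polb, whose groups do not overlap, so that leaving out libraries could hardly turn them. By limma-voom Fancd2 was 2.37, Xrcc5 -0.08, Xrcc6 0.01, Parp1 -0.04, Msh6 0.10 and Atr -0.44. Upper-quartile factors gave Xrcc5 -0.01 and Atr -0.01, and DESeq2 and the legacy fit gave Atr -0.08 each. Without wild-type replicate 2 and knockout replicate 3, Brca1 was 0.39, Xrcc5 -0.16, Xpa 0.05, Chek2 -0.21 and Trp53bp1 -0.20. Over single libraries left out the ranges were -1.87 to 0.16 for Brca1, -0.12 to 1.04 for Rad51c, -2.02 to 7.01 for Fancd2, -0.82 to 0.24 for Fanci, -0.03 to 0.44 for Xrcc4, -0.20 to 0.34 for Xrcc5, -0.12 to 0.12 for Xrcc6, -0.56 to 0.70 for Prkdc, -0.85 to 0.09 for Xrcc1, -0.08 to 0.24 for Parp1, -0.37 to 0.41 for Xpc, -0.28 to 0.23 for Msh6, -1.25 to 0.17 for Atm, -0.46 to 0.94 for Atr and -0.36 to 0.23 for Chek1. The cause was not tested.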
